A study of Mus musculus with 31 samples.

Results

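The genes described here were Nras, Hras, Trp53, Mdm2, Smad4, Tgfbr2, Arid1a and Kdm6a, 8 genes of the Ras, p53, TGF-beta and chromatin pathways that are often altered in pancreatic cancer, chosen by their symbols among 60172 gene identifiers of 3 count tables. They were measured in 31 RNA sequencing libraries of Panc02, a murine pancreatic adenocarcinoma cell line. In the conditioned medium table, spheroids embedded in Matrigel received control medium (Ctrl), medium from unstimulated macrophages (M0-CM) or medium from macrophages treated with IFNγ and LPS (M1-CM), with 3 libraries each. In the 2D and 3D table, wild-type (WT) and Cxcl5-/- cells were grown in 2D or in 3D, with 3 libraries each. In the overexpression table, all in 3D, there were 2 WT libraries, 2 Cxcl5-/- libraries, 3 of Cxcl5-/- cells that overexpress a stabilized mutant of mouse Hif1α (Hif1α OE) and 3 of Cxcl5-/- cells that overexpress Myc (Myc OE), so that both overexpression groups also carry the Cxcl5 knockout. The knockout was made with lentiviral Cas9, 1 guide and puromycin selection, and whether the cells are 1 clone is not given in the sources used here. For overexpression, Cxcl5-/- cells were infected with a retroviral vector and selected with puromycin. No group is labelled as an empty-vector control, so effects of the gene and of this further infection cannot be told apart. The study's methods state biological replicates and independent experiments for its work in general, but the labels do not say whether libraries of a group came from separate cultures, so p-values measure the spread between these libraries, which may be technical.

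Nras and Hras are small GTPases that pass signals from growth factor receptors to the RAF-MEK-ERK kinases. p53, the product of Trp53, is a transcription factor that answers DNA damage and other stress by raising genes of arrest and apoptosis. It also raises Mdm2, whose product marks p53 for degradation. Tgfbr2 is the receptor kinase that binds TGF-beta, and Smad4 is the shared partner of the Smads that carry its signal to the nucleus. Arid1a is the DNA-binding subunit of a form of the SWI/SNF chromatin remodeller, and Kdm6a removes the repressive methyl mark from lysine 27 of histone H3 within the KMT2C/KMT2D complexes. In pancreatic carcinoma, p53, Smad4, Tgfbr2, Arid1a and Kdm6a are known as tumour suppressors.

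Because Hif1α and Myc, the factors overexpressed here, bind short DNA words, the 250 bases before the annotated start are shown for Nras and Hras, which were called higher in both overexpression groups (Nras with Myc OE in only 4 of 12 alternatives), and for Kdm6a and Tgfbr2, which fell in both. Arid1a also fell in both, and its window is described below without being printed. The sequences are RefSeq windows of the GRCm38.p6 build, read 5′ to 3′ on the strand of the gene. Capitals mark ACGTG (the core of the hypoxia response element, also contained on both strands in the E-box CACGTG that Myc binds), the GC box GGGCGG and the CCAAT box, each searched on both strands.
Nras, chr3:103058035-103058284, plus strand: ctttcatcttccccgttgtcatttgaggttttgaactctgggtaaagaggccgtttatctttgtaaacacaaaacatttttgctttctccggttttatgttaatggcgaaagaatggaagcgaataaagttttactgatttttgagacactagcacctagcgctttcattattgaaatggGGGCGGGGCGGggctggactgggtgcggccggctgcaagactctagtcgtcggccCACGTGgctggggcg
Hras, chr7:141194005-141194254, minus strand: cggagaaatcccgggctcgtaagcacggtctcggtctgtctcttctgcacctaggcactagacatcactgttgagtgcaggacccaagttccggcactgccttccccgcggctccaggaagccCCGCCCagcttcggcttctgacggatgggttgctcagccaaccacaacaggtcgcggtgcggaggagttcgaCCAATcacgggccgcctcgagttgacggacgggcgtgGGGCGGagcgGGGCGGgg
Kdm6a, chrX:18162325-18162574, plus strand: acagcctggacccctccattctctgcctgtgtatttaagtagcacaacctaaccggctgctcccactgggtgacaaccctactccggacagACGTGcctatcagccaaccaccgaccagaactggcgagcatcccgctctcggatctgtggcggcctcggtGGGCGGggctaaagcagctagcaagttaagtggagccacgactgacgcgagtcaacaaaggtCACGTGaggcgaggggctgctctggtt
Tgfbr2, chr9:116175364-116175613, minus strand: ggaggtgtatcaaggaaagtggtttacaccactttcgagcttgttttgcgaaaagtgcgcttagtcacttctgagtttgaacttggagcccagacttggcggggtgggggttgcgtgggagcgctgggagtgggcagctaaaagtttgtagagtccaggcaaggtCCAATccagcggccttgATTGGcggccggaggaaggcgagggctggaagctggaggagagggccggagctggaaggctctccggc
Nras held CACGTG with its first base 15 bases before the start, and Kdm6a held it 27 bases before the start and a further ACGTG at 159. Of the 7 members whose window was read, these 2 alone held either word, against 6.02% of 32817 windows of that length for CACGTG and 16.6% for ACGTG. The Hras window had 3 GC boxes, at 127, 18 and 8 bases, and a CCAAT box at 55, and the Tgfbr2 window had CCAAT boxes at 85 and 68 and no GC box. The Arid1a window had 1 GC box, at 140 bases, and no CCAAT box. GC boxes were in 32.7% of all windows and CCAAT in 33.8%. A match describes the letters and is not a measured binding site.

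In the GENCODE vM21 annotation of GRCm38, Nras spans chr3:103058285-103067914, Hras chr7:141189105-141194005, Trp53 chr11:69580359-69591873, Mdm2 chr10:117688875-117710758, Smad4 chr18:73639009-73703780, Tgfbr2 chr9:116084293-116175360, Arid1a chr4:133679008-133756769 and Kdm6a chrX:18162575-18279936. No exon base of a member is shared with another annotated gene. The longest run that transcripts of close relatives share was 23 bases for Nras and Hras, 29 for Arid1a and Arid1b and 61 for Kdm6a and Uty. Trp53 has a processed pseudogene, Trp53-ps, which held between 0.735% and 10.8% of the summed Trp53 and Trp53-ps counts of a library (median 3.23%). This is the share of counts assigned to it, and how many reads match both was not measured.

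All 8 genes passed the filter on low counts in all 3 tables. Levels are CPM, counts scaled to library size with TMM factors, and levels of different genes are compared only as CPM per kilobase of merged exons. In 2D WT cells Nras stood highest at 26.9 ± 0.114 CPM per kb (SD, n = 3) and Hras followed at 19.9 ± 2.59. Tgfbr2 was at 14.9 ± 1.11, Mdm2 at 10.5 ± 1.2 and Trp53 at 8.76 ± 0.65, and the ranges of Mdm2 and Trp53 overlapped. Smad4 was lower at 4.36 ± 0.398, and Kdm6a at 2.77 ± 0.103 and Arid1a at 2.54 ± 0.864 were lowest and overlapped. Both Ras genes were thus above the 5 suppressors named in the background in this group. Dividing by the longest transcript instead put Mdm2 (17.0) above Tgfbr2 (15). In 3D WT of the same table Tgfbr2 stood first at 32.8 ± 4.99 CPM per kb, ahead of Nras at 20 ± 1.07 and Mdm2 at 13.3 ± 0.877, Hras stood after these at 9.81 ± 0.507, and no neighbouring ranges overlapped. In WT of the overexpression table Nras, Mdm2 and Tgfbr2 were at 18.4, 17.4 and 16.7 CPM per kb, and the ranges of Mdm2 and Tgfbr2 overlapped.

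**Figure D1:**
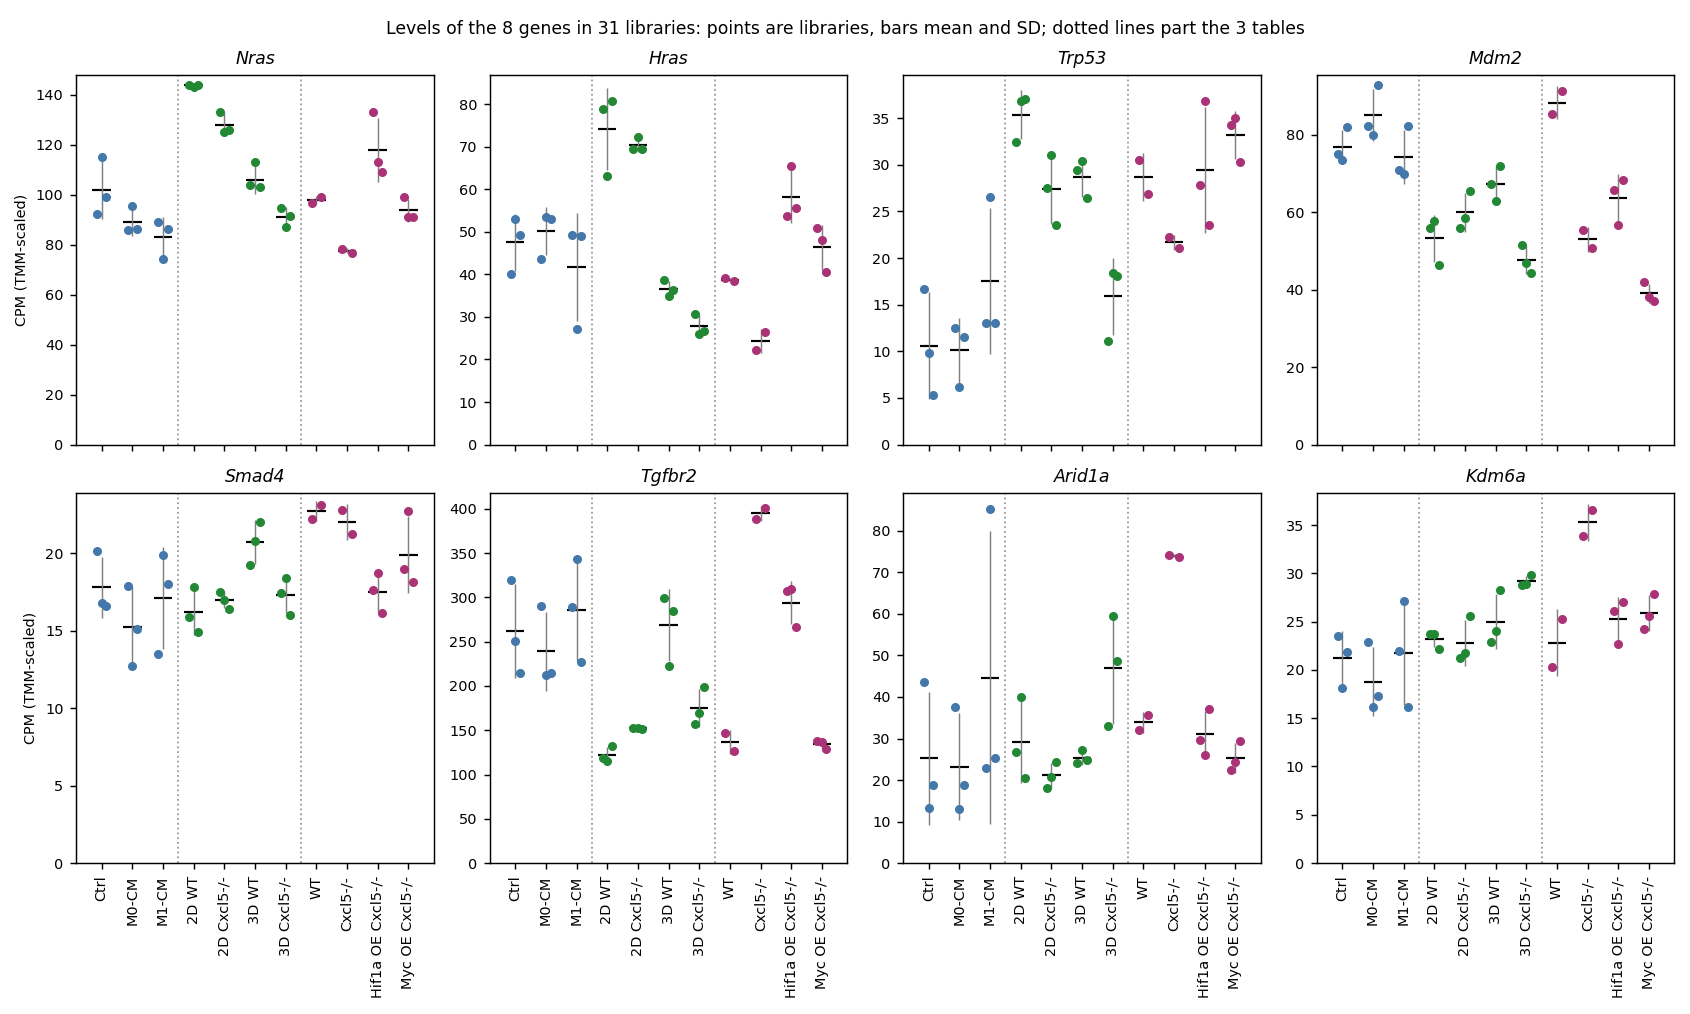
CPM of the 8 genes (vertical axes from 0) in every library, grouped along the horizontal axis, with points for libraries and bars for the group mean and SD. Hras is highest in 2D culture (63.1 to 80.8 CPM), Tgfbr2 in Cxcl5-/- of the overexpression table (389 and 401 CPM) and Arid1a in 1 M1-CM library (85.3 CPM) and in Cxcl5-/- of the overexpression table (74.2 and 73.7 CPM).

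Total counts ranged from 41542533 to 78498230 per library. Cxcl5 itself checked the labels only in part, since it was lower in Cxcl5-/- than in WT in 2D (32.7 to 37.4 against 45.6 to 49.1 CPM) and in the overexpression table (36.6 and 40.2 against 64.2 and 67.7), but higher for the libraries labelled 3D Cxcl5-/- (40.9 to 65.5) against 3D WT (24.5 to 28.5). In these libraries labelled 3D Cxcl5-/-, Hif1a was at 140 to 175 CPM and Myc at 9.12 to 11.4, against 336 to 407 and 33.9 to 36.9 in 3D WT, and both were also lower in Cxcl5-/- than in WT of the overexpression table (Hif1a 133 and 144 against 304 and 324, Myc 20 and 22.3 against 46.1 and 49.3). Whether the level of Cxcl5 transcript tracks the knockout, or labels were exchanged, was not tested. Hif1a was at 243 to 296 CPM with Hif1α OE against 133 and 144 in Cxcl5-/-, and Myc at 397 to 548 with Myc OE against 20 and 22.3. With Myc OE, Hif1a was at 241 to 271 CPM. The level of Hif1a RNA thus overlapped between the overexpression groups, and in both it was below WT of that table (304 and 324). Epcam and Cdh1, markers of epithelial cells, were at no more than 0.609 CPM in any library, while the epithelial keratin Krt8 was at 134 to 648 CPM. The macrophage genes Adgre1, Itgam, Fcgr3 and Csf1r stayed at or below 0.717 CPM and Ptprc at or below 1.92, while the other 3 of the 8 macrophage markers were present, Cd14 at up to 53 CPM, Lyz2 at up to 16.7 and Cd68 at up to 11.2. Their summed level was 28.1 to 32.4 CPM in 2D WT, 48.5 to 49.3 in 2D Cxcl5-/-, 42.2 to 46.4 in 3D WT and 43.4 to 63.3 in 3D Cxcl5-/-, and 4 of the 5 tested were called higher from 2D to 3D in WT. The 7 fibroblast markers summed to 156 to 169 CPM in 3D WT and 397 to 454 in 3D Cxcl5-/-, and to 77.7 to 81.6 in WT, 459 and 467 in Cxcl5-/-, 137 to 175 with Hif1α OE and 312 to 343 with Myc OE of the overexpression table, with Thy1 at or below 0.596 CPM throughout. The 11 ductal and epithelial markers summed to 871 to 1120 CPM in 3D WT and 265 to 284 in 3D Cxcl5-/-, and to 881 to 923, 335 to 352, 744 to 867 and 303 to 350 in the 4 groups of the overexpression table. Of the 7 fibroblast markers, 5 were called higher and none lower in Cxcl5-/- than in WT of that table, whereas between the 3D genotypes of the other table, 2 of the 6 tested were called higher and 3 lower (median log2 -0.83), although the sum was higher. The part of these markers in the results for members was not tested. Libraries also differed in the share of all counts held by Malat1 and Neat1, RNAs that stay in the nucleus, and this share is given beside the genes it moved with. In bulk RNA, fewer cells of a type and less RNA per cell cannot be told apart.

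A gene was called changed at a Benjamini-Hochberg adjusted p under 0.05 in edgeR's quasi-likelihood test over all genes of a table. In 3D WT against 2D WT, 3 of the 8 members were higher and 2 lower, where 22.2% of the 21367 genes in the test rose and 22% fell. In 3D Cxcl5-/- against 2D Cxcl5-/-, 2 members were higher and 4 lower, against 28.7% and 28.2% of all genes. In 2D, none of the 8 was called between Cxcl5-/- and WT, where 3.86% of genes were higher and 3.17% lower, and 3 members, Nras, Trp53 and Tgfbr2, had an unadjusted p under 0.05 in the edgeR test. In 3D, 1 member was higher and 6 lower in Cxcl5-/- than in WT, against 19.7% and 25.3%. The difference between these genotype effects, an interaction term, was called for 3 members, 1 more positive and 2 more negative in 3D, against 11.1% and 16.1% of all genes. With so large a share of all genes called, most of these counts of members lie near the share of the whole table. The 6 of 8 called lower between the 3D genotypes are a larger share, on which no test was run, and that count depends on the scaling given below.

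In the overexpression table, 28730 genes were tested. Cxcl5-/- against WT had 3 members higher and 3 lower, against 17.6% and 24.3% of all genes. Hif1α OE against Cxcl5-/- had 2 higher and 4 lower, against 20.5% and 15%, and Myc OE against Cxcl5-/- had 3 higher and 4 lower, against 21.6% and 18%. Myc OE against Hif1α OE had 3 lower and none higher, against 9.73% and 9.54%. These comparisons share libraries: the Cxcl5-/- pair stands in 3 of the 4, so a high value there moves all 3.

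The scaling of the libraries decided part of these counts. With library totals in place of TMM, the median log2 change of all genes in 3D Cxcl5-/- against 3D WT moved from -0.04 to 0.35, the calls moved from 4218 higher and 5397 lower to 7671 higher and 2445 lower, and 2 members were called, Arid1a and Kdm6a, both higher. Nras (0.16) and Smad4 (0.13) then changed sign, and the values of Hras, Trp53, Mdm2 and Tgfbr2 were -0.01, -0.45, -0.11 and -0.21, none called. The split of all calls also moved in 3D WT against 2D WT, from 4752 higher and 4707 lower to 3563 and 6712, in the interaction, from 2376 and 3431 to 4585 and 1359, with Hif1α OE, from 5904 and 4308 to 4335 and 5604, with Myc OE, from 6205 and 5167 to 4271 and 7482, and in Myc OE against Hif1α OE, from 2742 and 2796 to 1982 and 3504. The directions below are relative to the TMM scaling, under which the median of all genes was -0.30 in Cxcl5-/- against WT of the overexpression table, 0.16 with Hif1α OE and 0.11 with Myc OE.

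**Figure D2:**
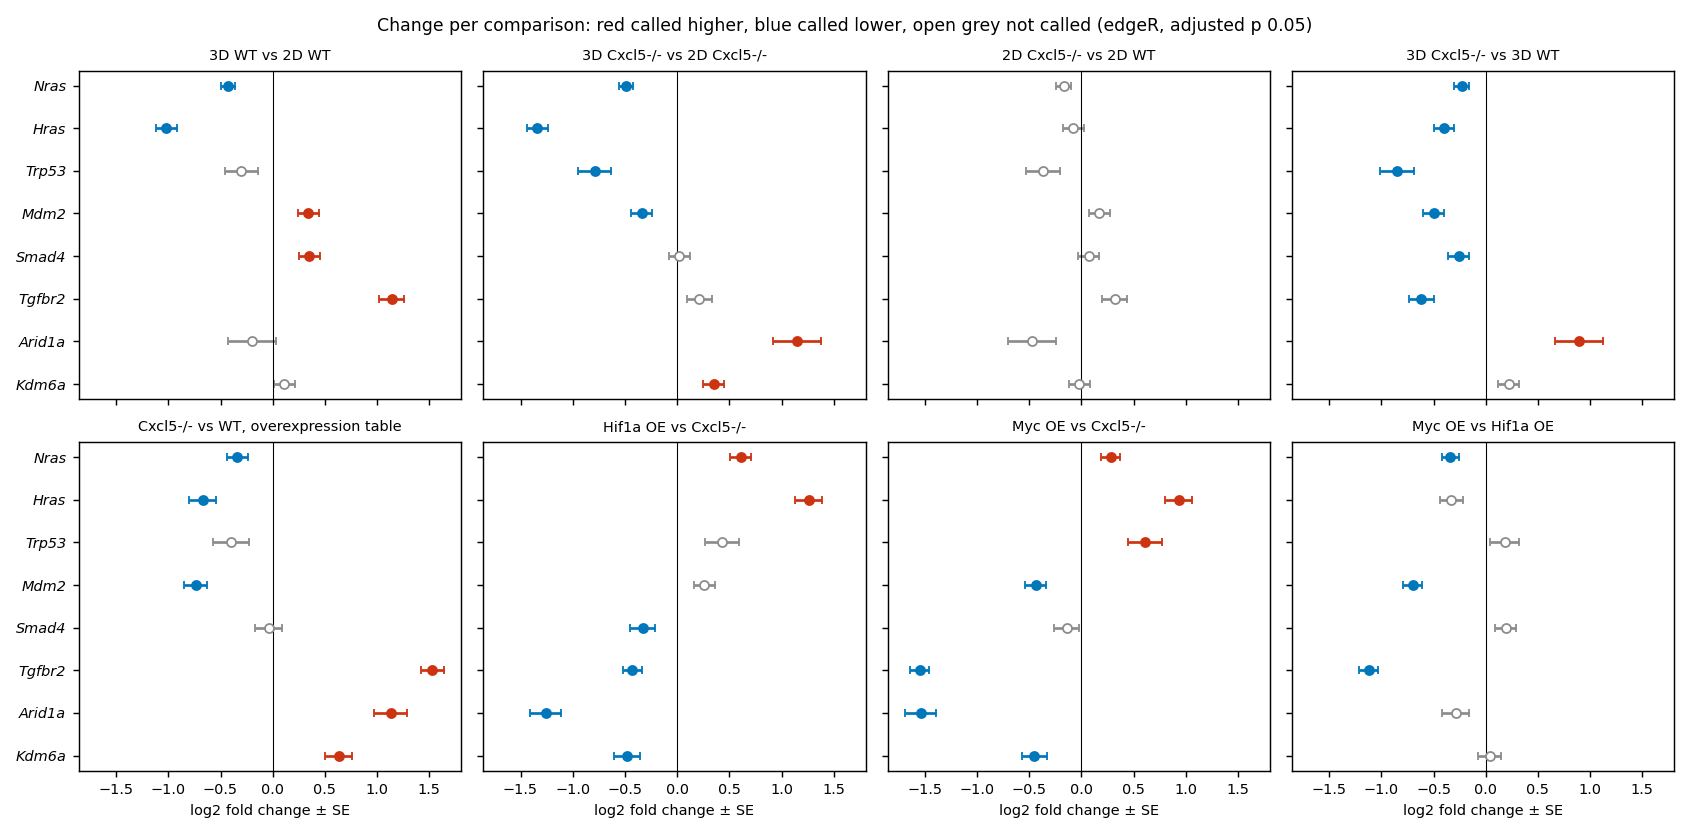
log2 fold change with SE (horizontal axes) of the 8 genes in 8 comparisons, with filled points for genes called higher (red) or lower (blue) and open grey points for genes not called. Hras and Arid1a lie on opposite sides of 0 in 3D Cxcl5-/- against 3D WT (-0.40 and 0.89) and with Hif1α OE (1.26 and -1.26), and Tgfbr2 lies on opposite sides in the 2 comparisons of Cxcl5-/- with WT in 3D (-0.62 and 1.53).

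Of the Ras genes, Hras changed most between the cultures. Its CPM were 78.8, 63.1 and 80.8 in 2D WT and 69.4, 72.4 and 69.5 in 2D Cxcl5-/-, and fell to 38.7, 34.9 and 36.4 in 3D WT and 30.7, 26.1 and 26.7 in 3D Cxcl5-/-. Every 3D library was below every 2D library. The log2 change from 2D to 3D was -1.02 ± 0.10 in WT (SE, adjusted p = 1.82e-06), a 2.03-fold fall, and -1.34 ± 0.10 in Cxcl5-/- (adjusted p = 9.44e-08), a 2.53-fold fall. The difference between these falls was not called (-0.32 ± 0.14, adjusted p = 0.105). Within 3D, Hras was 1.32-fold lower in the libraries labelled Cxcl5-/- (adjusted p = 0.00499), a call lost in 3 alternatives, among them that without 3D Cxcl5-/- replicate 2.

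Nras moved the same way but less. It was at 144, 143 and 144 CPM in 2D WT, 133, 125 and 126 in 2D Cxcl5-/-, 104, 113 and 103 in 3D WT and 94.7, 87.0 and 91.6 in 3D Cxcl5-/-, so the 4 groups did not overlap. It fell by 0.43 on the log2 scale from 2D to 3D in WT (SE 0.07, adjusted p = 0.000247) and by 0.49 in Cxcl5-/- (SE 0.07, adjusted p = 6.15e-05). In 3D its difference between the genotypes was small, at -0.23 ± 0.07 (adjusted p = 0.0212), and the call was lost in 5 alternatives, among them the one without 3D Cxcl5-/- replicate 2. As Hras fell more than Nras, the log2 ratio of their counts within a library, which no scaling moves, went from 0.96 ± 0.19 in 2D WT (SD, n = 3) to 1.54 ± 0.14 in 3D WT and from 0.86 ± 0.08 in 2D Cxcl5-/- to 1.71 ± 0.08 in 3D Cxcl5-/-, with no overlap between 2D and 3D libraries.

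In the overexpression table both Ras genes were lowest in Cxcl5-/- and higher in the other 3 groups. Hras was at 39.1 and 38.4 CPM in WT, 22.3 and 26.4 in Cxcl5-/-, 53.8, 65.6 and 55.6 with Hif1α OE and 50.8, 48.0 and 40.6 with Myc OE. All overexpression libraries were therefore above the WT libraries too. Hras fell by 0.67 (SE 0.13, adjusted p = 0.00241) in Cxcl5-/- against WT, and rose 2.39-fold with Hif1α OE (log2 1.26 ± 0.13, adjusted p = 1.84e-05) and 1.90-fold with Myc OE (0.93 ± 0.13, adjusted p = 0.000115). Nras was at 96.7 and 99.1 CPM in WT, 78.2 and 76.7 in Cxcl5-/-, 133, 113 and 109 with Hif1α OE and 99.1, 91.1 and 91.1 with Myc OE. It rose 1.53-fold with Hif1α OE (adjusted p = 0.00039) and 1.21-fold with Myc OE (adjusted p = 0.0373), and the difference between these groups was called (-0.34 ± 0.08, adjusted p = 0.0153). The Myc OE call of Nras was lost in 8 of 12 alternatives, among them those without either Cxcl5-/- library and without Myc OE replicate 1 or 2, and its value changed sign with library totals (-0.06). Its fall in Cxcl5-/- against WT (-0.34 ± 0.10, adjusted p = 0.0231) was lost in 6 of 11, among them those without any 1 of the 4 libraries compared, and its difference between the overexpression groups was lost without Hif1α OE replicate 1 or Myc OE replicate 2. The ratio of Nras to Hras was highest in Cxcl5-/- (log2 1.67 ± 0.19, n = 2) and 1.02 in both overexpression groups.

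Other genes of the Ras pathway moved in both directions. Of 38 Ras regulators, effectors and anchoring enzymes, 13 were higher and 8 lower in WT in 3D than in 2D (median log2 0.18, all genes 0.00), and 10 were higher and 15 lower in Cxcl5-/- than in WT spheroids (median -0.26, all genes -0.04). Map2k1, which encodes the ERK kinase MEK1, rose from 134 ± 2.17 to 310 ± 25.6 CPM from 2D to 3D in WT and was at 167 ± 7.67 in 3D Cxcl5-/-. Dab2ip, a GTPase-activating protein that switches Ras off, had 70.3 ± 8.67 CPM in 3D WT against 260 ± 16.3 in 3D Cxcl5-/-, and at 63.6 ± 0.823 and 232 ± 8.37 CPM in WT and Cxcl5-/- of the overexpression table. It fell to 86.8 ± 1.70 with Hif1α OE. With Myc OE the pathway had 8 genes higher and 16 lower (median -0.15, all genes 0.11), and with Hif1α OE 14 higher and 13 lower (median -0.07, all genes 0.16).

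Of the genes of ERK output and feedback, 14 were tested in the 2D and 3D table. In 3D WT against 2D WT 8 were higher and none lower (median 0.49), and in 3D Cxcl5-/- against 3D WT 2 were higher and 12 lower (median -1.66). In 2D, 7 were already lower in Cxcl5-/- than in WT and none higher (median -0.25, all genes -0.02), where 3.17% of all genes were lower. Ier3, an early ERK target, was at 19.2 ± 4.15 CPM in 2D WT, 255 ± 31.4 in 3D WT and 34.1 ± 6.83 in 3D Cxcl5-/-. Etv4, an ETS factor, fell from 8.19 ± 1.90 in 3D WT to 1.96 ± 0.536 CPM in 3D Cxcl5-/-, whereas the immediate early gene Egr1 was at 8.99 ± 0.616 and 18.6 ± 3.97. In the overexpression table, 2 of 15 were higher and 10 lower in Cxcl5-/- than in WT (median -1.75, all genes -0.30). With Hif1α OE 8 were higher and 3 lower against Cxcl5-/-, and with Myc OE 5 were higher and 6 lower. Ier3 was at 295 ± 5.35 CPM in WT, 25.0 ± 0.79 in Cxcl5-/-, 91.5 ± 12.6 with Hif1α OE and 113 ± 5.77 with Myc OE.

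Trp53 had its lowest values of the 2D and 3D table among the libraries labelled 3D Cxcl5-/-. It was at 32.4, 36.8 and 37.1 CPM in 2D WT, 27.5, 31.1 and 23.6 in 2D Cxcl5-/-, 29.5, 30.4 and 26.4 in 3D WT and 11.1, 18.4 and 18.1 in 3D Cxcl5-/-. The 3 lowest libraries of the 12 were those of 3D Cxcl5-/-. It was 1.81-fold lower there than in 3D WT (log2 -0.85 ± 0.16, adjusted p = 0.000832) and 1.72-fold lower than in 2D Cxcl5-/- (-0.79 ± 0.16, adjusted p = 0.00103). Its values in 3D WT against 2D WT (-0.30 ± 0.16, adjusted p = 0.149), in 2D Cxcl5-/- against 2D WT (-0.37 ± 0.16, adjusted p = 0.232) and in the interaction (-0.48 ± 0.23, adjusted p = 0.140) were not called.

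Mdm2 separated the genotypes by culture. It was at 55.9, 57.8 and 46.4 CPM in 2D WT, 56.0, 58.5 and 65.6 in 2D Cxcl5-/-, 67.2, 63.0 and 71.9 in 3D WT and 51.5, 46.9 and 44.4 in 3D Cxcl5-/-. From 2D to 3D it rose in WT (0.34 ± 0.10, adjusted p = 0.0126) and fell in Cxcl5-/- (-0.34 ± 0.10, adjusted p = 0.0101). The interaction was -0.67 ± 0.14 (adjusted p = 0.00309), and with library totals it was -0.31 (adjusted p = 0.135). The rise in WT was not called with library totals (0.12) or without 2D WT replicate 3, the lowest library of its group, and the fall in Cxcl5-/- was lost in 3 alternatives. In 3D, Mdm2 was 1.42-fold lower in Cxcl5-/- than in WT (adjusted p = 0.000983).

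In the overexpression table Mdm2 and Trp53 went apart with Myc OE. Mdm2 was at 85.3 and 91.3 CPM in WT, 55.4 and 50.7 in Cxcl5-/-, 65.8, 56.7 and 68.4 with Hif1α OE and 42.0, 38.1 and 37.2 with Myc OE. It was 1.67-fold lower in Cxcl5-/- than in WT (-0.74 ± 0.11, adjusted p = 0.000277) and 1.36-fold lower again with Myc OE (-0.44 ± 0.10, adjusted p = 0.00382, not called without Cxcl5-/- replicate 1), and it differed between Myc OE and Hif1α OE by -0.70 ± 0.09 (adjusted p = 0.000206). With Hif1α OE its value was 0.26 ± 0.10 (adjusted p = 0.0593). Trp53 was at 30.5 and 26.9 CPM in WT, 22.3 and 21.1 in Cxcl5-/-, 27.8, 36.8 and 23.5 with Hif1α OE and 34.3, 35.0 and 30.3 with Myc OE. It rose 1.53-fold with Myc OE (0.61 ± 0.16, adjusted p = 0.0104), a call lost with library totals (0.27) and without Cxcl5-/- replicate 2. Its values in Cxcl5-/- against WT (-0.40 ± 0.17, adjusted p = 0.0796) and with Hif1α OE (0.43 ± 0.16, adjusted p = 0.0557) were not called, and were called in 5 and 4 alternatives, the DESeq2 test among them in both.

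Among 27 p53 target genes tested in the 2D and 3D table, 12 were higher and 9 lower in WT in 3D than in 2D (median 0.21), 8 were higher and 1 lower in Cxcl5-/- than in WT cells in 2D (median 0.15), and 3 were higher and 18 lower in Cxcl5-/- than in WT spheroids (median -0.53, all genes -0.04). The interaction was called for 19 of them, 17 of which were more negative in 3D. Cdkn1a, which encodes the cell cycle inhibitor p21, was at 10.2 ± 1.33 CPM in 2D WT, 67.8 ± 1.73 in 3D WT and 3.92 ± 2.51 in 3D Cxcl5-/-. Ccng1 was at 426 ± 10.5 CPM in 2D WT, 712 ± 43.7 in 2D Cxcl5-/- and 182 ± 16.9 in 3D Cxcl5-/-. Spheroids of the conditioned medium table, all WT and scaled separately, had Ccng1 at 127 to 235 CPM. Eda2r rose from 27.3 ± 1.63 CPM in 2D WT to 67.7 ± 4.59 in 2D Cxcl5-/-. The death receptor gene Fas went the other way in 3D, from 17.9 ± 1.90 CPM in WT to 79.4 ± 8.69 in Cxcl5-/-.

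Across the overexpression table, 9 of 29 p53 targets were higher and 10 lower in Cxcl5-/- than in WT (median 0.00, all genes -0.30). Cdkn1a fell from 58.2 ± 2.93 to 14.1 ± 1.02 CPM, while Fas rose from 20.3 ± 1.28 to 95.1 ± 2.05 and Gadd45a, a DNA damage gene, from 72.2 ± 4.21 to 194 ± 12.2. With Hif1α OE 5 were higher and 10 lower, and with Myc OE 8 were higher and 11 lower. Gadd45a was at 77.1 ± 0.696 CPM with Hif1α OE and 60.2 ± 4.52 with Myc OE, and the apoptosis gene Bax rose from 27.9 ± 4.03 in Cxcl5-/- to 75.1 ± 9.83 and 56.3 ± 8.09.

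Of 18 tested regulators of p53 in the 2D and 3D table, 2 were higher and 9 lower in WT in 3D than in 2D, and 7 were higher and 6 lower in Cxcl5-/- than in WT spheroids. Cdkn2a, whose product ARF holds MDM2 back, was at no more than 0.824 CPM in any library of the series. Trp63, a relative of Trp53, was at 1.21 ± 0.267 CPM in 2D WT, 5.30 ± 0.534 in 3D WT and 35.4 ± 9.99 in 3D Cxcl5-/-, but at 3.58 ± 0.208 and 1.52 ± 0.401 in WT and Cxcl5-/- of the overexpression table. Rpl5, a ribosomal protein that binds MDM2, was at 1150 ± 21.9 CPM in WT, 412 ± 7.30 in Cxcl5-/-, 964 ± 133 with Hif1α OE and 1550 ± 117 with Myc OE of that table, where all genes for ribosomal proteins together held 4.82% to 4.88%, 2.14% to 2.24%, 4.54% to 5.78% and 6.87% to 7.78% of the counts.

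Tgfbr2 gave differences of up to 2.93-fold, and its direction depended on the table. In the 2D and 3D table it was at 119, 115 and 132 CPM in 2D WT, 152, 152 and 151 in 2D Cxcl5-/-, 299, 222 and 285 in 3D WT and 157, 170 and 199 in 3D Cxcl5-/-. The 3D WT libraries stood above all others. It rose 2.21-fold from 2D to 3D in WT (1.14 ± 0.12, adjusted p = 3.14e-06) and its value in Cxcl5-/- was 0.21 ± 0.12 (adjusted p = 0.141), an interaction of -0.93 ± 0.16 (adjusted p = 0.00102) that was kept in all 18 alternatives. In 3D it was 1.53-fold lower in the libraries labelled Cxcl5-/- than in WT (-0.62 ± 0.12, adjusted p = 0.000735).

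Within the overexpression table the same pair of genotypes, again in 3D, went the other way. Tgfbr2 was at 147 and 127 CPM in WT and 389 and 401 in Cxcl5-/-, a 2.89-fold rise (1.53 ± 0.11, adjusted p = 1.24e-06) that all 11 alternatives kept. It was at 307, 309 and 266 CPM with Hif1α OE and 138, 137 and 129 with Myc OE, so that the Myc OE libraries lay within the range of WT. The fall from Cxcl5-/- was 1.34-fold with Hif1α OE (-0.43 ± 0.09, adjusted p = 0.00395) and 2.93-fold with Myc OE (-1.55 ± 0.09, adjusted p = 4.39e-07), and Myc OE and Hif1α OE differed by -1.12 ± 0.09 (adjusted p = 4.64e-06). The tables were scaled separately, and the difference between their Tgfbr2 effects was not tested. The Cxcl5 level, which also differed between the genotypes in opposite directions in the 2 tables, is given above.

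Smad4 varied little. All 31 libraries were between 12.7 and 23.1 CPM. It was at 15.9, 17.8 and 14.9 CPM in 2D WT, 17.5, 17.0 and 16.4 in 2D Cxcl5-/-, 19.2, 20.8 and 22 in 3D WT and 17.4, 18.4 and 16 in 3D Cxcl5-/-. It rose 1.28-fold from 2D to 3D in WT (0.35 ± 0.10, adjusted p = 0.0103, 0.13 with library totals), and its 3D difference between the genotypes (-0.26 ± 0.10, adjusted p = 0.0461) was lost in 10 of 13 alternatives, among them those without 3D WT replicate 2 or 3 or 3D Cxcl5-/- replicate 2 or 3, and changed sign with library totals. For the overexpression table WT (22.2 and 23.1 CPM) and Cxcl5-/- (22.8 and 21.2) overlapped. Hif1α OE libraries were at 17.6, 18.7 and 16.1 CPM (-0.33 ± 0.12, adjusted p = 0.0454, lost in 6 of 12 alternatives, 4 of them leaving out 1 library) and Myc OE libraries at 19.0, 22.7 and 18.1.

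Among the other receptors, Smads and Smad regulators of the TGF-beta family, 23 were tested in the 2D and 3D table. In 3D WT against 2D WT 5 were higher and 3 lower, and in 3D Cxcl5-/- against 3D WT 7 were higher and 9 lower (median 0.09). Tgfbr1, the partner receptor, fell from 84.6 ± 4.01 to 57.9 ± 3.64 CPM from 2D to 3D in WT, opposite to Tgfbr2, but rose with it from 58.3 ± 3.28 to 152 ± 3.67 CPM in Cxcl5-/- against WT of the overexpression table. There 11 of 25 were higher and 5 lower in Cxcl5-/- (median 0.18, all genes -0.30), and 12 were lower and 2 higher with Hif1α OE and 11 lower and 1 higher with Myc OE. Acvr1, an activin and BMP receptor, was at 23.4 ± 0.0503 CPM in WT, 62.8 ± 3.65 in Cxcl5-/-, 21.2 ± 3.41 with Hif1α OE and 16.5 ± 2.27 with Myc OE.

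Genes known to respond to TGF-beta moved in both directions in each comparison given here, though unevenly. Of 13, 6 were higher and 2 lower in WT in 3D than in 2D (median log2 0.59). From 2D to 3D in Cxcl5-/-, 9 were higher and 1 lower (median 1.53, all genes 0.11). Between the spheroids of that table, 5 were higher and 2 lower in Cxcl5-/- than in WT (median 0.05). Ccn2, a matrix gene, was at 54.0 ± 2.04, 19.1 ± 1.05 and 195 ± 9.21 CPM in 2D WT, 3D WT and 3D Cxcl5-/-. In Cxcl5-/- of the overexpression table, where Tgfbr2 was higher, 7 of the 13 were higher and 2 lower than in WT (median 1.45, all genes -0.30). Ccn2 rose there from 16.1 ± 0.049 CPM in WT to 277 ± 0.409. With Hif1α OE 2 of the 13 were higher and 8 lower, and with Myc OE 3 were higher and 7 lower.

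**Figure D3:**
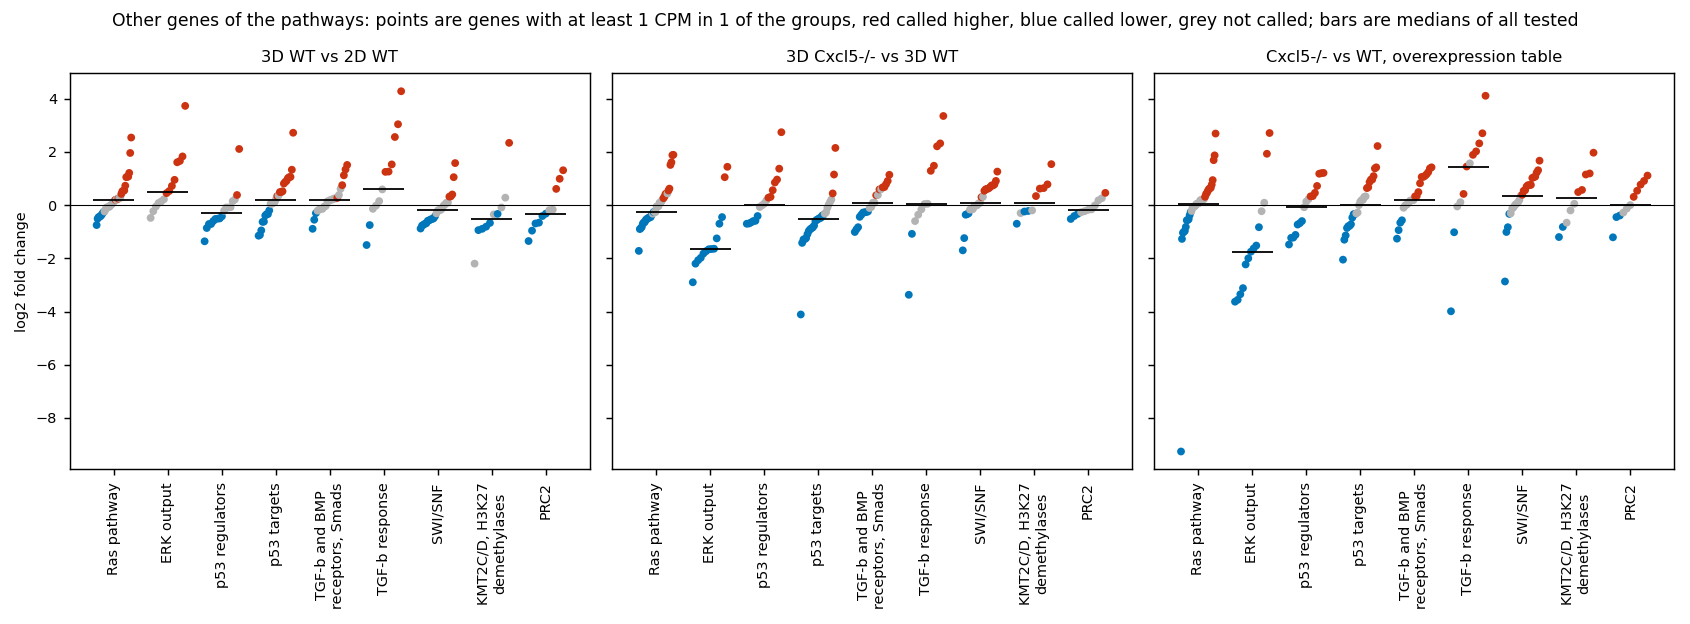
log2 fold change (vertical axis) of the other genes of each pathway in 3 comparisons, with a point for each gene at 1 CPM or more in at least 1 of the groups and a bar for the median of all genes tested of the list. The ERK output genes lie mostly above 0 in 3D WT against 2D WT (median 0.49) and mostly below 0 in both comparisons of Cxcl5-/- with WT in 3D (medians -1.66 and -1.75).

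Arid1a was the only member called higher in Cxcl5-/- than in WT spheroids as tested, and Kdm6a was called higher too in 4 of 13 alternatives (library totals, no filter, at least 10 counts in every library, and without 3D WT replicate 3). It was at 26.8, 40.1 and 20.6 CPM in 2D WT, 18.2, 20.8 and 24.4 in 2D Cxcl5-/-, 24.0, 27.3 and 24.9 in 3D WT and 32.9, 59.4 and 48.6 in 3D Cxcl5-/-. The 3D libraries of the genotypes did not overlap. The rise was 1.85-fold over 3D WT (0.89 ± 0.23, adjusted p = 0.00621) and 2.22-fold over 2D Cxcl5-/- (1.15 ± 0.23, adjusted p = 0.000728), and the interaction was 1.35 ± 0.32 (adjusted p = 0.00745). Its values in 3D WT against 2D WT and in 2D Cxcl5-/- against 2D WT were -0.20 ± 0.23 and -0.47 ± 0.23 (adjusted p = 0.515 and 0.310).

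Within the overexpression table Arid1a was at 32.1 and 35.7 CPM in WT, 74.2 and 73.7 in Cxcl5-/-, 29.6, 26.1 and 37.2 with Hif1α OE and 22.4, 24.4 and 29.4 with Myc OE. The Cxcl5-/- pair stood alone. Arid1a was 2.18-fold higher there than in WT (1.13 ± 0.16, adjusted p = 0.000269), fell 2.39-fold with Hif1α OE (-1.26 ± 0.15, adjusted p = 4.97e-05) and fell 2.91-fold with Myc OE (-1.54 ± 0.15, adjusted p = 8.87e-06). Each of these calls was kept in every alternative run for it.

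In the 3D groups, high Arid1a levels were found in libraries with a high share of Malat1 and Neat1, while in 2D WT Arid1a reached 40.1 CPM at a share of 0.37%. That share was 0.312% to 0.414% in 2D, 1.01% to 1.48% in 3D WT and 1.71% to 2.58% in 3D Cxcl5-/-, and within 3D Cxcl5-/- the library with 2.58% also had the highest Arid1a. For the overexpression table it was 2.13% to 2.33% in WT, 5.04% and 5.06% in Cxcl5-/-, 1.26% to 1.94% with Hif1α OE and 0.912% to 1.31% with Myc OE. Hras was lowest in the group with the highest share in both of these tables. The part of this share in the results for Arid1a, Kdm6a and Hras was not tested.

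**Figure D4:**
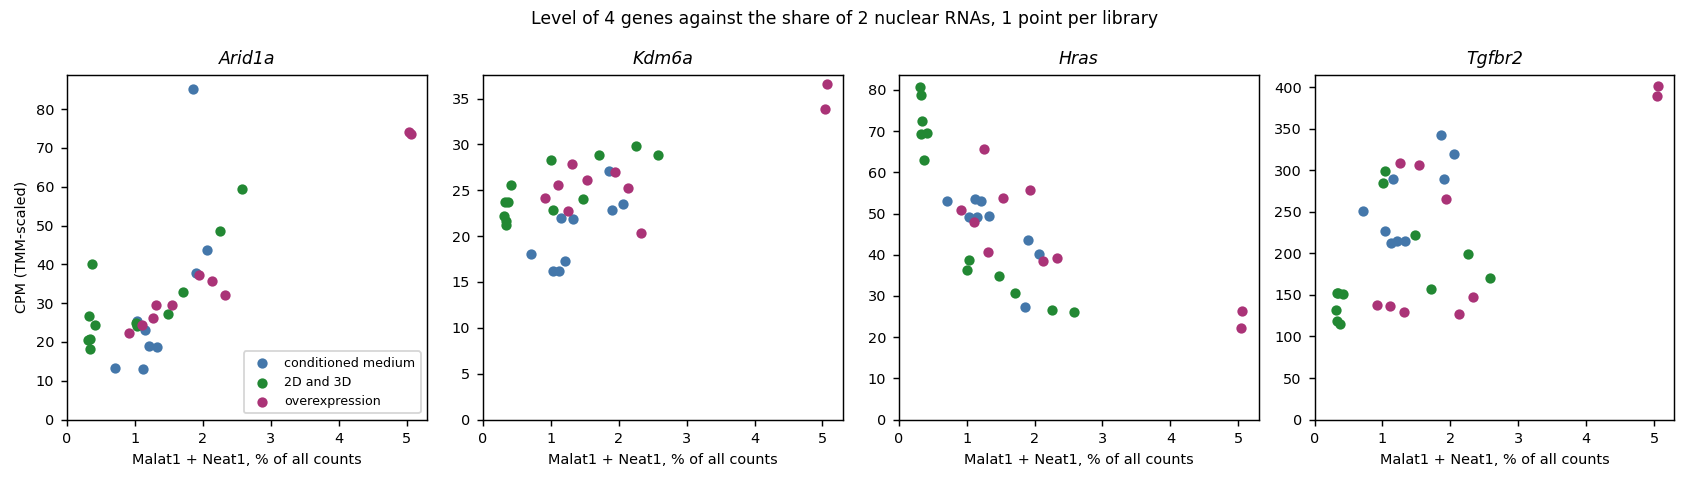
CPM of 4 genes (vertical axes) against the percentage of all counts held by Malat1 and Neat1 (horizontal axes), with 1 point per library coloured by table. The points are not independent, as libraries of a group share their condition, and the 2 points near 5% are the Cxcl5-/- libraries of the overexpression table, where Arid1a and Kdm6a were high and Hras was low.

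Subunits of SWI/SNF other than Arid1a moved in both directions. Of 25 tested in the 2D and 3D table, 5 were higher and 11 lower in WT in 3D than in 2D, and 11 were higher and 5 lower in Cxcl5-/- than in WT spheroids (median 0.09). Across the overexpression table, 13 of 27 were higher and 5 lower in Cxcl5-/- than in WT (median 0.36, all genes -0.30), 7 were higher and 12 lower with Hif1α OE and 6 were higher and 13 lower with Myc OE. Smarca2, an alternative ATPase of the complex, had 79 ± 9.90 CPM in 3D WT against 148 ± 12.9 in 3D Cxcl5-/-, whereas the actin-related subunit Actl6a went from 66.7 ± 9.50 to 28.3 ± 3.94. Actl6a was at 37.9 ± 1.91 CPM in WT, 21.2 ± 1.11 in Cxcl5-/-, 44.4 ± 3.49 with Hif1α OE and 43.5 ± 4.41 with Myc OE of the overexpression table, opposite to Arid1a. Within a library Arid1a counts were fewer than those of its relative Arid1b in every group mean, with a log2 ratio from -1.17 ± 0.09 in 2D Cxcl5-/- to -0.50 ± 0.20 in 3D Cxcl5-/-, and from -1.03 ± 0.17 with Myc OE to -0.34 ± 0.03 in Cxcl5-/- of the overexpression table.

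Kdm6a moved with Arid1a but over a smaller range. It was at 23.7, 23.7 and 22.2 CPM in 2D WT, 21.2, 21.7 and 25.6 in 2D Cxcl5-/-, 22.9, 24.0 and 28.3 in 3D WT and 28.8, 28.9 and 29.8 in 3D Cxcl5-/-. It rose 1.28-fold from 2D to 3D in Cxcl5-/- (0.35 ± 0.10, adjusted p = 0.00777), a call lost without 2D Cxcl5-/- replicate 2. Its difference between the genotypes in 3D was 0.22 ± 0.10 (adjusted p = 0.0891) and was called with library totals (0.61). Within the overexpression table it was at 20.3 and 25.3 CPM in WT, 33.9 and 36.6 in Cxcl5-/-, 26.1, 22.7 and 27 with Hif1α OE and 24.2, 25.6 and 27.9 with Myc OE. It was 1.55-fold higher in Cxcl5-/- than in WT (0.63 ± 0.13, adjusted p = 0.00272) and fell 1.40-fold with Hif1α OE (adjusted p = 0.00697) and 1.36-fold with Myc OE (adjusted p = 0.00984), the last pair of calls being lost without Cxcl5-/- replicate 2.

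Kdm6b, the other demethylase of the same histone mark, changed far more. It had 2.32 ± 0.735 CPM in 2D WT against 11.7 ± 1.85 in 3D WT (2.34 ± 0.31, adjusted p = 3.07e-05), and the log2 ratio of Kdm6a to Kdm6b counts fell from 3.38 ± 0.45 in 2D WT to 1.10 ± 0.37 in 3D WT and 0.62 ± 0.62 in 3D Cxcl5-/-. Of 10 tested genes of the KMT2C/KMT2D complexes and demethylases, 1 was higher and 5 lower in WT in 3D than in 2D, and 5 were higher and 3 lower in Cxcl5-/- than in WT spheroids. Kmt2d, a catalytic subunit, had 37.7 ± 4.18 CPM in 3D WT against 110 ± 50.3 in 3D Cxcl5-/-, and at 53.9 ± 0.971, 212 ± 6.31, 71.2 ± 19.9 and 65.0 ± 7.17 CPM in WT, Cxcl5-/-, Hif1α OE and Myc OE of the overexpression table. The small subunit Dpy30 went from 44.6 ± 3.84 CPM in WT to 19.5 ± 1.13 in Cxcl5-/- and 56.3 ± 13.4 and 63.2 ± 7.07 with Hif1α OE and Myc OE. Of the 11 subunits of PRC2, the complex that writes the mark, 3 were higher and 6 lower in WT in 3D than in 2D and 1 was higher and 3 lower in Cxcl5-/- than in WT spheroids. For the overexpression table, 5 were higher and 3 lower in Cxcl5-/-, 3 higher and 3 lower with Hif1α OE and 4 higher and 3 lower with Myc OE.

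With conditioned medium no member was called. All 8 had an adjusted p of at least 0.965 in M1-CM against Ctrl, 0.989 in M1-CM against M0-CM and 1 in M0-CM against Ctrl. In the table as a whole 3 genes were higher in M1-CM than in Ctrl and 3 in M1-CM than in M0-CM (0.0156% of 19207 in each) and 0% were lower, and 0% were higher or lower in M0-CM than in Ctrl. At an unadjusted p under 0.05 these comparisons had 586 genes higher and 317 lower, 309 and 189, and 412 and 157, and the DESeq2 test called 105, 34 and 22 genes, none of them a member. In the edgeR test none of the genes in the pathway lists was called either.

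Nras was at 92.1, 115 and 99.1 CPM in Ctrl, 85.9, 95.6 and 86.2 with M0-CM and 88.9, 74.3 and 86.3 with M1-CM, so that M1-CM libraries lay below those of Ctrl (-0.29 ± 0.14, unadjusted p = 0.0583). Hras was at 40.2 to 53.6 CPM in 8 libraries and at 27.2 in M1-CM replicate 2. Trp53 was at 16.7, 9.78 and 5.34 CPM in Ctrl, 12.5, 6.12 and 11.5 with M0-CM and 13, 26.5 and 13 with M1-CM, with differences of 0.72 ± 0.45 for M1-CM against Ctrl and 0.80 ± 0.45 for M1-CM against M0-CM, where the libraries did not overlap. Mdm2 (69.8 to 92.8 CPM), Smad4 (12.7 to 20.1), Kdm6a (16.2 to 27.1) and Tgfbr2 (212 to 343) had groups that overlapped.

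Arid1a spread widely here, at 43.6, 13.3 and 18.7 CPM in Ctrl, 37.7, 13.1 and 18.9 with M0-CM and 23.0, 85.3 and 25.4 with M1-CM. The highest library of each group was also the library with the highest Malat1 and Neat1 share (2.06%, 1.90% and 1.86%, against 0.711% to 1.33% in the other 6). M1-CM replicate 2, the library with the highest Arid1a and Trp53 and the lowest Hras, also had the fewest counts and the smallest share of ribosomal protein genes (2.52% against 3.21% to 3.92%). The M1-CM value of Arid1a against Ctrl was 0.82 ± 0.61. Without the 3 libraries above 1.5%, 2 genes were higher in M1-CM than in Ctrl, 2 than in M0-CM, and no member was called.

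To show which genes followed the same course, the 9722 genes whose mean count reached 500 were compared with each member by Pearson's correlation of log2 CPM over the 12 libraries of the 2D and 3D table. The nearest were 3110082I17Rik (0.994) and Nifk (0.993) for Nras, Ahcyl (0.995) and Tinagl1 (0.994) for Hras, Epb41l2 and Ywhaz (0.956 each) for Trp53, Atr (0.938) and Micu3 (0.927) for Mdm2, Zxdb (0.925) and Gm16185 (0.910) for Smad4, Slc39a13 (0.978) and Plod3 (0.977) for Tgfbr2, Atn1 (0.988) and Prrc2c (0.984) for Arid1a and Dlg1 (0.947) and Zfp281 (0.945) for Kdm6a. The libraries share groups and scaling, and these are the highest of many values, so they describe likeness within this table.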

How the data were processed

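RNA was measured in 31 libraries (stranded total RNA, read pairs, NovaSeq). The authors aligned reads with HISAT2 to GRCm38 (mm10 in the submitters' processing notes), and deposited StringTie gene counts without normalization. The annotation release and the conversion to counts are not given in the sources used here. The authors tested with DESeq2. Labels of the overexpression samples carry cell line names that run on from sample to sample, and the study's methods name Panc02, which was followed. All columns of counts were used.

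Counts were tested with edgeR 4.0.16 (limma 3.58.1, R 4.3.3): TMM scaling, a filterByExpr filter by group, and 1 quasi-likelihood fit per table with every group, Benjamini-Hochberg adjustment over all genes tested. The SE is the log2 fold change divided by the square root of F. Totals of 41542533 to 78498230 counts per library leave the spread between libraries as the limit of precision. Exon lengths came from GENCODE vM21. Named were all members, the targeted genes, at most 3 genes higher and 3 lower per list and comparison of the largest change (called, mean count 50 or more), and the 2 genes most like each member, of which the text uses part. Paralog ratios and marker genes at or near 0 are given besides. The members, the 13 lists and the tests were chosen with earlier results of these data known. The code was tested on simulated data. The alternatives tried were library totals, size factors and the Wald test of DESeq2 1.42.0, no filter, at least 10 counts in every library, only the groups compared, a replicate block, each library left out, and, chosen after seeing the data, leaving out 3 libraries with a Malat1 and Neat1 share above 1.5%. Protein sequences and the Smad4 promoter were not used here. 1 gene of the TGF-beta response list is counted in the list but not reported here by itself.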

Additional observations from a re-analysis of the deposited data

Results flagged for a closer look

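The effect of the Cxcl5 knockout differed between 3D and 2D for 3 members by the interaction term of the edgeR fit: Mdm2 (log2 -0.67), Tgfbr2 (-0.93) and Arid1a (1.35). In each case the effect in 2D was not called (0.17, 0.32 and -0.47) and that in 3D was (-0.50, -0.62 and 0.89). The 3D arm rests on the libraries labelled 3D Cxcl5-/-, in which Cxcl5 was higher than in 3D WT, and Hif1a (140 to 175 against 336 to 407 CPM) and Myc (9.12 to 11.4 against 33.9 to 36.9 CPM) were lower. With library totals the 3D effects of Mdm2 (-0.11) and Tgfbr2 (-0.21) and the interaction of Mdm2 (-0.31, adjusted p = 0.135) were not called.

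The effects of Myc OE and Hif1α OE over the same Cxcl5-/- cells differed in the direct comparison of the overexpression groups for Nras (-0.34), Mdm2 (-0.70) and Tgfbr2 (-1.12), all lower with Myc OE. The Nras call was lost in 2 of 13 alternatives, and the Mdm2 and Tgfbr2 calls were kept in all 13.

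Tgfbr2 in Cxcl5-/- against WT in 3D was lower in the 2D and 3D table (-0.62) and higher in the overexpression table (1.53), with no overlap between the genotypes in either. This difference between tables was not tested, and the tables cannot be told apart from other ways in which the experiments differed. No group held 4 or more libraries, so single outlying libraries were not tested.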

How the results depend on the processing

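Of 43 calls of a member, 24 were kept in every alternative, among them Hras and Nras from 2D to 3D in both genotypes, Arid1a in all 6 comparisons where it was called and Tgfbr2 in 6 of 7, and 19 were lost in at least 1. With library totals in place of TMM, Nras (0.16) and Smad4 (0.13) in 3D Cxcl5-/- against 3D WT and Nras with Myc OE (-0.06) changed sign, 2 members in place of 7 were called in 3D Cxcl5-/- against 3D WT, and 1 gene in M0-CM against Ctrl. With the DESeq2 test 105 genes were called in M1-CM against Ctrl, 22 in M0-CM against Ctrl and 34 in M1-CM against M0-CM. With at least 10 counts in every library, 1 gene was called in M1-CM against M0-CM. With only the groups compared in the fit, 2 genes were called in M0-CM against Ctrl, and Tgfbr2 as 1 member in 2D Cxcl5-/- against 2D WT. The cause of these differences was not tested.

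With libraries left out in turn, genes called ranged from 1 to 5 in M1-CM against Ctrl, from 1 to 6 in M1-CM against M0-CM and from 7487 to 7908 in Cxcl5-/- against WT of the overexpression table (12048 with all), where an arm then holds 1 library that is assumed to vary like the others. Members called ranged from 4 (without 3D Cxcl5-/- replicate 2) to 7 in 3D Cxcl5-/- against 3D WT, and from 4 (without Cxcl5-/- replicate 2) to 7 with Myc OE.

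Whether replicate numbers pair the libraries was not tested. Correlations of same-numbered libraries ran from -0.236 to 0.359. Their mean was 0.0369 in the conditioned medium table, against -0.0186 for libraries with other numbers. It was 0.0247 against -0.0123 in the 2D and 3D table, and 0.00408 against -0.0022 in the overexpression table. In this order of tables, 6 of 9, 5 of 12 and 5 of 10 libraries were most like one with their own number. With the replicate block, 1 gene was called in M1-CM against Ctrl and 1 in M1-CM against M0-CM, and 5 members in place of 3 in Myc OE against Hif1α OE.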
